A study of Mus musculus with 4 samples.

Results

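The Myc and Max network comprises 9 genes that were found by symbol in the count tables of a mouse plasmacytoma line: Myc, Max, Mxd1, Mxd3, Mxd4, Mxi1, Mnt, Mlx and Mga. All 9 were among the 22722 genes listed, and all 9 had enough counts to be among the 11027 genes tested. Total RNA came from 4 cultures of MPC11, a line of malignant plasma cells. In the Ell2-KD group (n = 2) the cells had taken up a pLKO.1 lentivirus carrying the short hairpin shELL2-1C7 against Ell2, which encodes an elongation factor of RNA polymerase II. In the shGFP group (n = 2) the same vector carried a hairpin against GFP, a sequence foreign to mouse cells. Every culture, the controls included, had therefore been exposed to lentivirus for 18 h, selected in puromycin for 72 h and expanded for a further 72 h. Only 1 hairpin against Ell2 was used, in 1 cell line. Separate transduction of the biological replicates is not stated, so p-values measure only the spread between these libraries, which may be technical.

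Proteins of this network share a basic helix-loop-helix leucine zipper and bind DNA as pairs. Myc is the growth-promoting activator, and it binds its site, the E-box, only when paired with Max. The 4 Mxd proteins (Mxi1 is the Mxd2 protein) and Mnt pair with Max as well, and they bring the Sin3 corepressor and histone deacetylases to the same sites. Mga pairs with Max within a Polycomb-type repressor complex that also holds E2f6. Mlx resembles Max but pairs with the nutrient-sensing factors Mlxip and Mlxipl, and with some of the Mxd proteins and Mnt. In mouse plasmacytomas a chromosome translocation typically places Myc under the control of an immunoglobulin locus. The labels do not describe the Myc locus of these cultures, and gene counts do not separate a translocated allele from a normal one.

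The genes of the network lie on different chromosomes apart from Mnt and Mlx, which are both on chromosome 11. To show the site through which these proteins act, the E-box core CACGTG was searched for in the RefSeq promoters of the network's own genes (build GRCm38.p6, from 250 bases before the gene start to 50 bases after it). This word reads the same on both strands. Of the 9 genes, 8 matched the promoter table (Myc did not), and 4 of these 8 held the word, namely Max, Mlx, Mnt and Mxd4. It occurred in 8.09% of all 27025 genes with a promoter in the table and in 7.15% of all 32851 promoters. The windows below reach 20 bases to either side of the core, which is in capitals, and run 5′ to 3′ on the strand of the gene.
Max: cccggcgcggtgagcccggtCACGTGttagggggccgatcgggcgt
Mlx: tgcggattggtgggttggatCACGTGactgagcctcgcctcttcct
Mnt: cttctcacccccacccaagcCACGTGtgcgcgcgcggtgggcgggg
Mxd4: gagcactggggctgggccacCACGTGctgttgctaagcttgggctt
In Max the core began 3 bases before the gene start (chr12:76962226-76962271, minus strand). In Mlx it began 40 bases before the start (chr11:101087230-101087275, plus strand). In Mnt it lay 123 bases before the start (chr11:74830781-74830826, plus strand), and in Mxd4 219 bases before it (chr5:34187904-34187949, minus strand). A match is a description of the letters and not evidence of binding in these cells.

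The libraries held 13914488 and 3496471 counts for Ell2-KD replicates 1 and 2, and 8323915 and 5088789 counts for shGFP replicates 1 and 2. The hairpin's target checked the labels: Ell2 stood at 87.8 and 115 CPM in Ell2-KD cells, against 938 and 996 CPM in shGFP cells (log2 change -3.25 ± 0.23 SE; edgeR adjusted p = 0.00032). CPM are counts relative to the library's sum over the tested genes after TMM scaling. CPM of all counts are relative to the library total without that scaling. All 7 of 7 plasma cell markers were detected, summing to 12737 to 16395 CPM of all counts in Ell2-KD cells and 15394 to 20282 in shGFP cells, most of it from Igj and Xbp1. In CPM of all counts, both depleted libraries lay below both controls for 5 of the 7 (Sdc1, Prdm1, Igj, Tnfrsf17 and Pou2af1). On the TMM scale this held for Irf4 as well (1615 and 1267 CPM in Ell2-KD cells, against 1871 and 1623 in shGFP cells). Of all tested genes, 18.5% lay below both controls in this way on the TMM scale. Tnfrsf17, the plasma cell receptor BCMA, was scarce in Ell2-KD cells, with 18 and 1 counts, against 159 and 126 counts in shGFP cells. These were 1.29 and 0.286 CPM of all counts in Ell2-KD cells, against 19.1 and 24.8 in shGFP cells. Sdc1 stood at 484 and 339 CPM of all counts in Ell2-KD cells, against 790 and 642 in shGFP cells, and Pou2af1 at 630 and 465 in Ell2-KD cells, against 1134 and 896 in shGFP cells. The part of these markers in the results on the network was not tested. Markers of T cells (5 genes) summed to at most 4.004 CPM of all counts in any library. On the same scale those of erythroid cells (3 genes, with Hbb-b1 at 0 in every library) summed to at most 0.59. Those of myeloid cells (5 genes) summed to between 8.34 and 34.9. Epcam, listed as an epithelial marker, stood at 450 and 579 CPM of all counts in Ell2-KD cells and 492 and 623 in shGFP cells, while the other 4 stromal and epithelial genes were scarce. Over all genes, 5 of the 11027 passed an edgeR adjusted p of 0.05, or 0.0453%.

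No gene of the network changed by that test. Myc transcripts were abundant and averaged 272 CPM in Ell2-KD cells and 292 CPM in shGFP cells. Per length of transcript Max and the Mxd repressors were far below Myc in both groups. The log2 change was positive for 2 of the 9 genes and negative for 7, though some of these signs turned when 1 library was left out. The count of calls was 0 of 9 in edgeR's quasi-likelihood test, 0 of 9 in DESeq2 and 0 of 9 at an unadjusted p under 0.05 in either, beside 5.82% of all tested genes at that unadjusted level in edgeR. The median log2 change of the members was -0.14, beside -0.00 over all genes tested. The adjusted p of the members ran from 0.918 for Mga to 0.999 (edgeR), so what the data give is chiefly each gene's level and how large a change its interval still allows. The libraries were bulk samples, so fewer cells expressing a gene and less of its RNA per cell cannot be told apart.

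Myc, the activator of the network, had 3409 and 1032 counts in Ell2-KD cells and 2274 and 1579 counts in shGFP cells. On the CPM scale these were 242 and 302 in Ell2-KD cells, against 271 and 313 in shGFP cells. The groups overlapped, and in each of them replicate 2 was the higher library. Mean levels were 272 ± 42.6 CPM in Ell2-KD cells and 292 ± 29.8 CPM in shGFP cells (SD, n = 2 each). The log2 change was -0.10 ± 0.23 (SE; edgeR adjusted p = 0.999), with a 95% confidence interval from -0.61 to 0.40. That interval corresponds to a level in Ell2-KD cells between 0.656 and 1.32 times that in shGFP cells. A 2-fold fall or a 2-fold rise of Myc lay outside the interval, whereas shifts inside it could not be told from none. The sign of the change was positive without Ell2-KD replicate 1 (0.054) or without shGFP replicate 2 (0.0033).

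Max, the partner shared by Myc, the Mxd proteins, Mnt and Mga, had 323 and 140 counts in Ell2-KD cells and 260 and 222 counts in shGFP cells. Its levels were 22.9 and 41.0 CPM in Ell2-KD cells, against 31.0 and 44.1 CPM in shGFP cells. As with Myc, both libraries numbered 2 were above both libraries numbered 1, and the groups overlapped. The log2 change of Max was -0.24 ± 0.44 (SE; edgeR adjusted p = 0.999), with a 95% interval from -1.20 to 0.72. Without Ell2-KD replicate 1 the change of Max was 0.14, without shGFP replicate 2 it was 0.034, and without Ell2-KD replicate 2 it was -0.71.

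**Figure D1:**
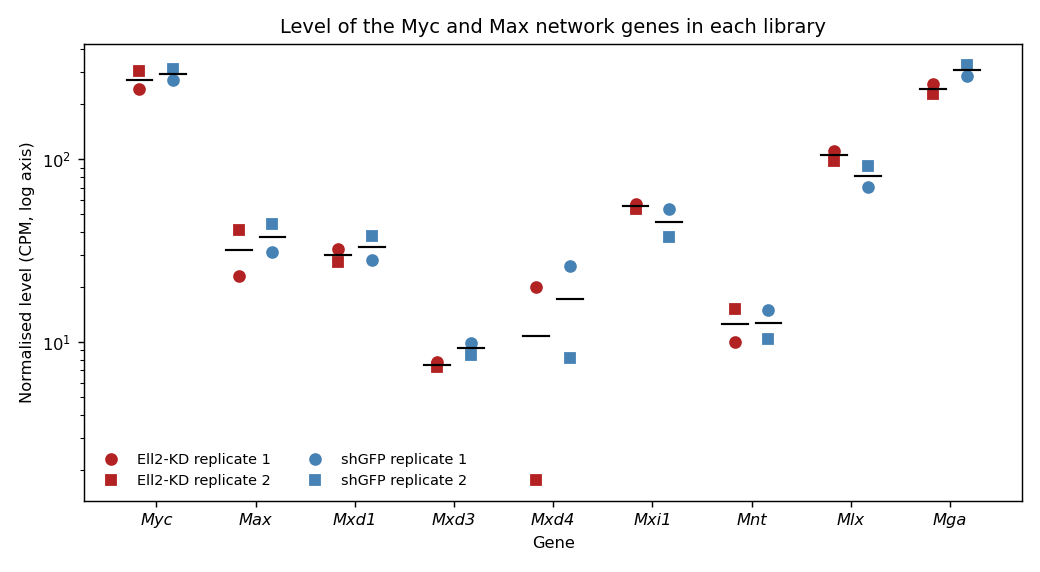
Normalised level of the 9 network genes (CPM on a log axis) in each library, Ell2-KD in red and shGFP in blue, circles for replicate 1 and squares for replicate 2, with black bars at the group means. Myc and Mga lie between 227 and 329 CPM in all 4 libraries, the groups overlap for 6 genes, and Mxd4 spans 1.76 to 26.1 CPM.

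Among the repressors, Mxd1 (Mad1, tied to terminal differentiation in several lineages) stood at 32.1 and 27.5 CPM in Ell2-KD cells, against 28.0 and 37.9 CPM in shGFP cells. Mxi1, often called a candidate tumour suppressor, stood at 57.0 and 53.3 CPM in Ell2-KD cells and 53.3 and 37.5 CPM in shGFP cells. Of the 4 libraries shGFP replicate 2 was the low one for Mxi1, and the log2 change of Mxi1 was 0.28 ± 0.35 (SE; edgeR adjusted p = 0.988). It was 0.050 without shGFP replicate 2 and 0.57 without shGFP replicate 1. For Mxd1 the log2 change was -0.14 ± 0.41 (SE), and shGFP replicate 2 was its highest library. Without that library the change of Mxd1 was 0.093.

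Mxd3, which is found in cycling cells, was scarce at 7.73 and 7.32 CPM in Ell2-KD cells, against 9.90 and 8.53 CPM in shGFP cells. Both depleted libraries were below both controls, as for 18.5% of all tested genes. That separation of Mxd3 rested on 109 and 25 counts in Ell2-KD cells and 83 and 43 counts in shGFP cells. The log2 change was -0.29 ± 0.72 (SE; edgeR adjusted p = 0.999), and its 95% interval ran from -1.88 to 1.30, which includes a 2-fold change in either direction. With 1 library left out the change of Mxd3 ran from -0.39 to -0.17.

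Mxd4 varied more among libraries than any other member. It had 281 and 6 counts in Ell2-KD cells and 219 and 41 counts in shGFP cells, which gave 19.9 and 1.76 CPM in Ell2-KD cells, against 26.1 and 8.14 CPM in shGFP cells. In both groups the library numbered 1 was the high one, which is the opposite of Myc and Max, and the groups overlapped. The log2 change of -0.61 ± 1.00 (SE; edgeR adjusted p = 0.999) had a 95% interval from -2.93 to 1.71. Its value turned on which library was left out: the change was -3.28 without Ell2-KD replicate 1 and -1.22 without shGFP replicate 2, but 0.21 without Ell2-KD replicate 2 and 0.46 without shGFP replicate 1. None of these passed after adjustment (edgeR adjusted p = 0.286 in the first, and 0.592 or more in the other alternatives).

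Mnt, a broadly expressed repressor that pairs with Max, was at 10.0 and 15.2 CPM in Ell2-KD cells and 15.02 and 10.3 CPM in shGFP cells. The groups lay on top of each other, with replicate 2 the higher in Ell2-KD and replicate 1 the higher in shGFP. The log2 change was -0.02 ± 0.61 (SE; edgeR adjusted p = 0.999), and it was 0.26 without Ell2-KD replicate 1 and 0.29 without shGFP replicate 1.

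Mga, the large member with both a T-box and a helix-loop-helix zipper domain, had 3658 and 775 counts in Ell2-KD cells and 2378 and 1657 counts in shGFP cells. Its levels were 259 and 227 CPM in Ell2-KD cells, against 284 and 329 CPM in shGFP cells. Both depleted libraries were below both controls, as for 18.5% of all tested genes. Mean levels were 243 ± 23.1 CPM in Ell2-KD cells and 306 ± 31.99 CPM in shGFP cells (SD, n = 2 each). The log2 change was -0.33 ± 0.22 (SE; edgeR adjusted p = 0.918), with a 95% interval from -0.82 to 0.16, or 0.565 to 1.12 times the control level. Its sign was the same in all 11 alternatives tried, where it ranged from -0.43 to -0.22.

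Mlx, the partner of Mlxip and Mlxipl, had 1569 and 336 counts in Ell2-KD cells and 593 and 460 counts in shGFP cells. It stood at 111 and 98.4 CPM in Ell2-KD cells, against 70.7 and 91.3 CPM in shGFP cells. Both depleted libraries were above both controls, as for 17.4% of all tested genes, though Ell2-KD replicate 2 and shGFP replicate 2 were close. The log2 change was 0.37 ± 0.29 (SE; edgeR adjusted p = 0.953), with a 95% interval from -0.26 to 1.01, and it ranged from 0.21 to 0.57 over the 11 alternatives. Of the exons of Mlx, 19.3% overlap those of Psmc3ip on the opposite strand in the GENCODE annotation, and the strand setting of the counting is not given in the sources used here. Psmc3ip, a recombination factor, stood at 17.7 and 22.8 CPM in Ell2-KD cells and 19.4 and 27.4 CPM in shGFP cells. Exons of Mxd3, Mxd4 and Mxi1 also overlap an opposite-strand gene, over 4.43%, 6.06% and 2.84% of their length. The gene that overlaps Mxd3 is Prelid1, a mitochondrial lipid transfer protein, which was more abundant than Mxd3 at 58.8 and 62.9 CPM in Ell2-KD cells, against 93.96 and 91.3 CPM in shGFP cells. As for Mxd3 and for 18.5% of all tested genes, both depleted libraries were below both controls for Prelid1. The log2 change of Prelid1 was -0.61 ± 0.29 (SE; edgeR adjusted p = 0.859). The part of reads from such neighbours in the values of Mlx, Mxd3, Mxd4 and Mxi1 was not tested. Some list genes named below have such overlaps too, among them Txnip (19.4% of exon length) and Actl6a (11.6%), where it was not tested either.

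**Figure D2:**
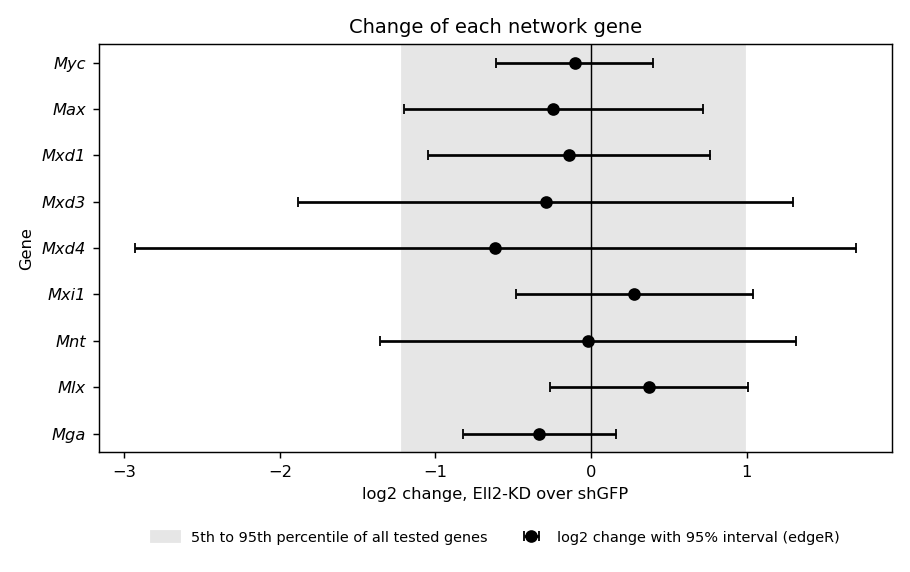
Log2 change of each network gene, Ell2-KD over shGFP, with its 95% confidence interval from edgeR, over a grey band that spans the 5th to 95th percentile of all tested genes (-1.22 to 0.99). Every interval includes 0, that of Myc runs from -0.61 to 0.40, and that of Mxd4 is the widest.

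Of the 9 genes, Mlx lay higher and Mxd3 and Mga lay lower in both depleted libraries than in both controls, which is 3 of 9 beside 35.8% of all genes tested without overlap in either direction. The members' share is near that background. The 9 genes together took 0.0772% and 0.0756% of all counts in Ell2-KD cells, against 0.0795% and 0.0871% in shGFP cells. Myc and Mga made up most of these counts in each library. Myc alone was 31.7% and 39.1% of the members' counts in Ell2-KD cells and 34.4% and 35.6% in shGFP cells.

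To set the genes beside one another, counts on the CPM scale of each library total were divided by the kilobases of merged exon in the GENCODE M21 annotation. On this scale Myc was the most abundant member in all 4 libraries, at 90.2 and 109 in Ell2-KD cells and 101 and 114 in shGFP cells. That placed it at or above the 95.6th percentile of 10889 tested genes with a length. Mlx came next at 56.4 and 48.1 per kilobase in Ell2-KD cells and 35.6 and 45.2 in shGFP cells. Mga followed at 17.1 and 14.4 in Ell2-KD cells and 18.6 and 21.2 in shGFP cells, since its high counts are spread over 15340 bases of exon. The ranges of Myc, Mlx and Mga over the 4 libraries did not overlap one another.

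Max came after Mga by mean level per kilobase, at 6.45 and 11.1 in Ell2-KD cells and 8.68 and 12.1 in shGFP cells, close to the median tested gene (7.53 to 8.10 over the libraries). Its range overlapped that of Mxi1, at 8.47 and 7.63 in Ell2-KD cells and 7.87 and 5.44 in shGFP cells, so those neighbours did not differ beyond their spread. Mxd1, Mxd3, Mnt and Mxd4 followed, with means over all 4 libraries of 4.43, 3.53, 2.72 and 1.66 per kilobase, and each overlapped the next. All 4 were below the median tested gene in every library. With the longest transcript in place of merged exons the order was the same except that Mxd4 (3.04) stood above Mnt (2.74), and Max stood at 17.8, beside 19.7 for Mga.

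**Figure D3:**
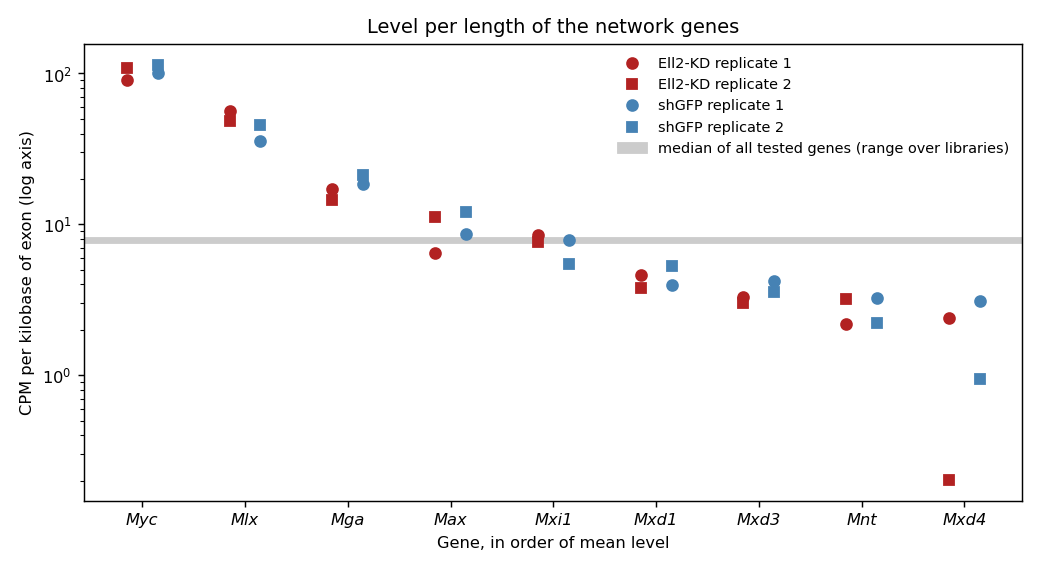
Level per length of the 9 genes (CPM of the library total per kilobase of merged exon, log axis) in each library, in order of mean level, Ell2-KD in red and shGFP in blue, circles for replicate 1 and squares for replicate 2. The grey band marks the median of all tested genes (7.53 to 8.10), which Myc, Mlx and Mga exceed in all 4 libraries and Mxd1, Mxd3, Mnt and Mxd4 do not reach.

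Ratios of counts within a library do not depend on how libraries are scaled. Myc counts were 10.6 and 7.37 times Max counts in Ell2-KD cells, against 8.75 and 7.11 times in shGFP cells (means 8.96 ± 2.25 and 7.93 ± 1.16, SD, n = 2 each; two-sided exact permutation p = 0.667, where 0.333 is the smallest that 2 against 2 libraries can give). The counts of Mxd1, Mxd3, Mxd4, Mxi1 and Mnt, summed, were 0.524 and 0.348 of Myc counts in Ell2-KD cells and 0.488 and 0.327 in shGFP cells (two-sided exact permutation p = 0.667). For both ratios replicate 1 was the higher library in each group, by more than the groups differed. Replicate 1 was also the deeper library in each group, so replicate number and depth cannot be told apart. These ratios are of counts and not of molecules, since the genes differ in length.

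By a search over 9427 genes with a mean of at least 5 CPM, the 3 whose centred log2 CPM over the 4 libraries lay nearest to Myc were Mfsd10, a membrane transporter, Lcmt1, which methylates the phosphatase PP2A, and Papola, the poly(A) polymerase. Their Euclidean distances were 0.033, 0.039 and 0.040, beside a median of 0.72 over the genes searched. The 3 were picked as the smallest distances, so their place below the median is given by the choice. Theirs is a likeness over 4 libraries only.

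Genes that work with the network were counted in lists, and no tested member of any list passed the edgeR test. Of the other genes of the family, Mycn and Mlxipl had at most 4 counts in any library and were not tested. Mycl1 had 52 and 3 counts in Ell2-KD cells and 26 and 14 in shGFP cells. Mlxip, the MondoA partner of Mlx, stood at 27.0 and 70.3 CPM in Ell2-KD cells, against 80.4 and 106 CPM in shGFP cells. Both depleted libraries were below both controls, as for 18.5% of all tested genes, with Ell2-KD replicate 1 far below the rest. The log2 change was -0.96 ± 0.43 (SE; edgeR adjusted p = 0.846). The change of Mlxip was -0.40 without Ell2-KD replicate 1 and -1.79 without Ell2-KD replicate 2. Txnip, the thioredoxin-interacting protein and a well-known target of the Mlxip and Mlx pair, stood at 601 and 444 CPM in Ell2-KD cells, against 391.6 and 323 CPM in shGFP cells. Its log2 change was 0.55 ± 0.23 (SE; edgeR adjusted p = 0.825), and 0.32 to 0.75 with 1 library left out. Klf10, of the same short list, stood at 18.0 and 26.6 CPM in Ell2-KD cells and 36.5 and 13.9 in shGFP cells, and Arrdc4 had at most 5 counts.

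Among the coactivators that Myc recruits, the log2 change was positive for 12 of 17 tested genes and negative for 5, with a median of 0.12 beside -0.00 over all genes. None passed. Actl6a, an actin-like subunit of chromatin complexes, stood at 114 and 123 CPM in Ell2-KD cells, against 55.7 and 74.4 CPM in shGFP cells (log2 change 0.86 ± 0.29 SE; edgeR adjusted p = 0.717). Both depleted libraries were above both controls for 9 of these 17 genes and below for 0, where 17.4% and 18.5% of all tested genes were. Some of the 9 were separated only narrowly. Epc1 stood at 62.9 and 57.7 CPM in Ell2-KD cells, against 53.3 and 57.5 in shGFP cells. Smarcb1 stood at 91.1 and 89.3 CPM in Ell2-KD cells, against 86.5 and 85.7 in shGFP cells. Brd8, a bromodomain subunit of the Tip60 complex, and Ccnt1, the cyclin of the elongation kinase P-TEFb, had log2 changes of 0.44 ± 0.26 and 0.58 ± 0.36 (SE). With 1 library left out Brd8 ran from 0.17 to 0.68, Ccnt1 from 0.36 to 0.77 and the median of these coactivators from 0.064 to 0.27.

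Of 17 tested Sin3 and NCoR corepressor genes, through which the Mxd proteins and Mnt act, 9 were positive and 8 negative, with a median of 0.14. That median was -0.33 without Ell2-KD replicate 2, so no direction can be given for the list. Sap18, a subunit of the Sin3 complex, had 27 and 20 counts in Ell2-KD cells and 90 and 82 counts in shGFP cells (log2 change -1.85 ± 0.83 SE; edgeR adjusted p = 0.845). Its value is uncertain, because near-identical copies exist in the mouse genome, and their part in the counts was not tested. Ing1, a reader of methylated histone H3, and Rbbp4, a histone chaperone, had log2 changes of -0.72 ± 0.38 and 0.49 ± 0.28 (SE). Omitting 1 library gave -2.80 to -1.19 for Sap18, -1.04 to -0.43 for Ing1 and 0.15 to 0.95 for Rbbp4.

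Of 10 tested genes of the Mga and E2f6 complex, 8 were positive and 2 negative, with a median of 0.14, and -0.083 without Ell2-KD replicate 1. The ubiquitin ligases Ring1 and Rnf2 had log2 changes of -0.39 ± 0.35 and 0.34 ± 0.30 (SE), and the E2F partner Tfdp1 of 0.20 ± 0.29 (SE). For each of these 3 the groups overlapped, and omitting 1 library gave -0.61 to -0.15 for Ring1, 0.062 to 0.69 for Rnf2 and 0.011 to 0.44 for Tfdp1. Among 11 genes that govern the turnover of Myc protein, 7 were positive and 4 negative (median 0.01). Gsk3b, a kinase that marks Myc for degradation, stood at 50.2 and 93.1 CPM in Ell2-KD cells, against 109 and 118 CPM in shGFP cells (log2 change -0.68 ± 0.34 SE; edgeR adjusted p = 0.866). The change of Gsk3b was -0.28 without Ell2-KD replicate 1 and -1.18 without Ell2-KD replicate 2. Usp36, a nucleolar deubiquitinase of Myc, and Huwe1, a large ubiquitin ligase, had log2 changes of 0.48 ± 0.28 and -0.29 ± 0.19 (SE), the second between -0.37 and -0.19 with 1 library left out.

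Of 8 genes tied to Myc transcription, 5 were positive and 3 negative (median 0.15). Pvt1, the long non-coding RNA gene beside Myc, had 2468 and 795 counts in Ell2-KD cells and 887 and 697 counts in shGFP cells. It stood at 175 and 233 CPM in Ell2-KD cells, against 106 and 138 CPM in shGFP cells. Both depleted libraries were above both controls, as for 17.4% of all tested genes. The value of 0.74 ± 0.27 on the log2 scale (SE) did not pass (edgeR adjusted p = 0.754). Its neighbour Myc had a log2 change of -0.10 in the same libraries, and the difference between those 2 changes was not tested. Prdm1, a repressor of Myc in plasma cells, and Irf4, an activator of Myc in myeloma, had log2 changes of -0.39 ± 0.24 and -0.28 ± 0.20 (SE). Omitting 1 library gave -0.59 to -0.13 for Prdm1 and -0.46 to -0.11 for Irf4.

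Genes that Myc is known to activate were spread around 0: of 37 tested, 23 were positive and 14 negative, with a median of 0.04, and -0.014 without Ell2-KD replicate 1. Npm1, the nucleolar protein nucleophosmin, stood at 415 and 427 CPM in Ell2-KD cells, against 253 and 315 CPM in shGFP cells (log2 change 0.57 ± 0.22 SE; edgeR adjusted p = 0.794). Npm1 has many processed copies in the genome, so its value is uncertain, and their part in the counts was not tested. Odc1, ornithine decarboxylase of polyamine synthesis, pointed the other way at 74.6 and 62.4 CPM in Ell2-KD cells, against 116 and 108 CPM in shGFP cells (log2 change -0.71 ± 0.28 SE; edgeR adjusted p = 0.807). Shmt2, the mitochondrial serine hydroxymethyltransferase, had a log2 change of -0.58 ± 0.25 (SE), and -0.89 to -0.33 with 1 library left out. Of these targets 30 matched the promoter table, and CACGTG occurred in 11 of them. Of those 11, 5 were positive and 6 negative (median log2 change -0.02), and of the other 19, 13 were positive and 6 negative (0.10).

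The list of Myc-repressed genes and of Zbtb17, the Miz1 protein through which Myc represses, held 9 genes, and 5 were tested, of which 4 were positive and 1 negative. Cdkn2b, which encodes the cell cycle inhibitor p15, had 78 and 53 counts in Ell2-KD cells and 1 and 13 in shGFP cells, a log2 difference of 3.003 ± 1.30 that did not pass (SE; edgeR adjusted p = 0.83) and ran from 2.02 to 6.29 with 1 library left out. Cdkn2c, encoding p18, stood at 25.6 and 31.6 CPM in Ell2-KD cells, against 17.8 and 15.7 CPM in shGFP cells (log2 change 0.77 ± 0.46 SE). Cdkn1a, encoding p21, had 30 and 37 counts in Ell2-KD cells and 27 and 18 in shGFP cells. At their unequal depths these were 2.13 and 10.8 CPM in Ell2-KD cells, against 3.22 and 3.57 in shGFP cells. The groups of Cdkn1a thus overlapped, with Ell2-KD replicate 1 the lowest library (log2 change 0.90 ± 1.11 SE). The other 4 genes had at most 4 counts in any library. The median of the 5 tested was 0.77, but -0.065 with no filter on low counts and 0.041 with a minimum count of 50. A scarce gene such as Cdkn2b passes the filter through the group where it is high, so these counts give no direction for the list.

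**Figure D4:**
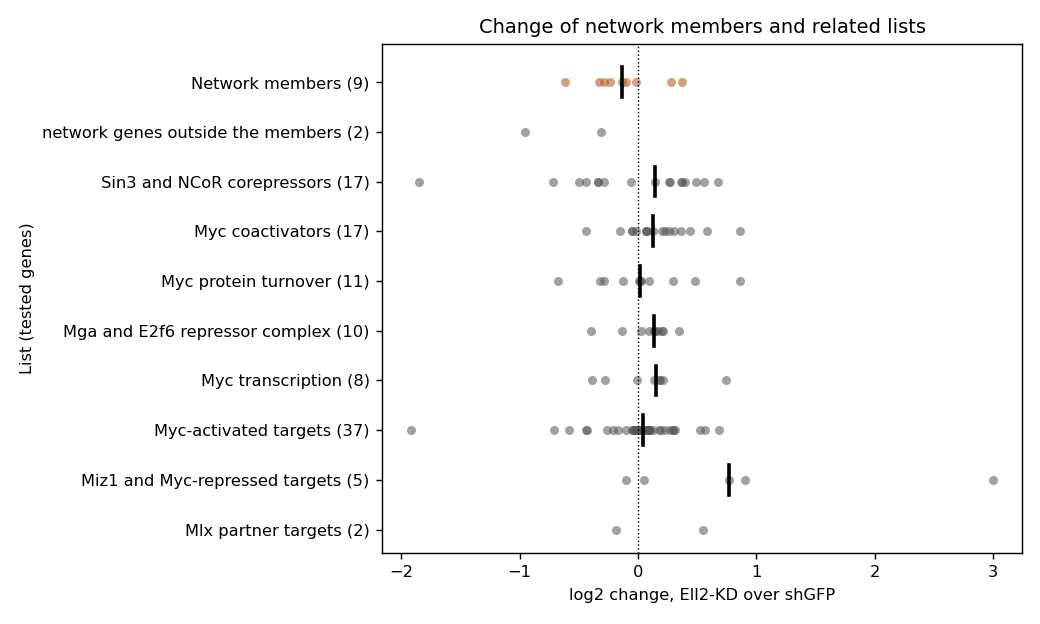
Log2 change, Ell2-KD over shGFP, of each tested gene of the network (orange) and of the lists of related genes (grey), with the number tested in brackets and black bars at the median of lists with at least 5 tested genes. The medians of the lists lie between -0.14 and 0.15 except for the Miz1 and Myc-repressed list (5 tested genes, 0.77). No point passed the edgeR test.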

How the data were processed

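Total RNA was read on a SOLiD sequencer, as the labels' protocols state. Raw read counts per gene symbol were deposited, in a separate table for each of 4 libraries, per the file headers. In the submitters' processing notes the names are DESeq 1.4.1, HTSeq 0.5.3, SAMtools 0.1.11 and the mouse build mm9. No source used here gives the aligner, annotation or strand setting. Members and lists were chosen with earlier results of these data known.

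Differences were tested with edgeR 4.0.16 (R 4.3.3): filterByExpr (minimum count 10, minimum total 15), TMM scaling, and a two-sided robust quasi-likelihood test with group as the only term. P-values were adjusted by Benjamini-Hochberg across the 11027 genes that entered the test, and 0.05 was the threshold. An SE is the change divided by the square root of F. The test was also run on simulated counts, where the only requirement was that median log2 changes lay near those set. Those simulated counts held no replicate effect. DESeq2 1.42.0 was an alternative. No set test was made. Genes named were the 9 members, Ell2, the 3 with the smallest p of each list and the 3 nearest patterns to Myc; marker genes, overlapping neighbours and untested list genes were named in addition. Exon lengths came from GENCODE M21 (GRCm38), which may differ from the authors' annotation: of 22722 symbols, 19436 matched as written, 1853 through an older symbol and 1433 not at all. The shallowest library, with 3496471 counts, limits precision for scarce genes.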

Additional observations from a re-analysis of the deposited data

How the results depend on the processing

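With 2 libraries per group, scarce genes gave wide intervals. No network gene passed in any of the 11 alternatives. Of all genes tested, 5 were called, but 28 with the replicate number as a block, 46 in DESeq2, 22 without a filter on low counts, 2 with library totals as the only scaling, 1 in the non-robust test, and 1 to 6 with 1 library left out. The labels do not say that a replicate number marks a shared day or batch; deviations of same-numbered libraries correlated at 0.31. The block changed no call of a member or a named list gene, but moved the log2 change of Mxd4 to -1.12, of Mycl1 to -0.58 and of Cdkn1a to 0.495. With the block the median of the Myc transcription genes moved to 0.11, of the corepressors to 0.087 and of the Miz1 and Myc-repressed list to 0.495.

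Among the members and the named list genes, the only ones put through the alternatives, signs changed only when 1 library was left out. The log2 change then ran from -0.27 to 0.054 for Myc, -0.71 to 0.14 for Max, -0.33 to 0.093 for Mxd1, -3.28 to 0.46 for Mxd4, -0.35 to 0.29 for Mnt, -1.71 to 0.32 for Mycl1, -0.67 to 1.68 for Cdkn1a and -0.72 to 0.69 for Klf10. Over the same omissions list medians ran from -0.24 to 0.054 for the members, -0.33 to 0.23 for the corepressors, 0.064 to 0.27 for the coactivators, -0.048 to 0.11 for Myc turnover, -0.083 to 0.22 for the Mga and E2f6 complex, 0.058 to 0.16 for Myc transcription, -0.014 to 0.084 for Myc-activated genes and 0.39 to 0.92 for the Miz1 and Myc-repressed list. Without a filter on low counts the median was -0.069 for the members, 0.20 for Myc transcription and -0.065 for the Miz1 and Myc-repressed list. With a minimum count of 50 the last was 0.041. With the longest transcript as length, levels per kilobase were 120 for Myc, 17.8 for Max, 6.71 for Mxd1, 4.79 for Mxd3, 3.04 for Mxd4 and 9.96 for Mxi1. The alternatives for list genes were chosen after seeing the data. The cause of these changes was not tested.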
